A study of Rattus norvegicus with 22 samples.

Results

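Mitochondrial ribosomal proteins are the protein subunits of the ribosome that works inside mitochondria. On the rat arrays described here they were taken as the non-control probes whose accession belongs to a rat gene with a symbol that begins with Mrpl or Mrps and a digit. This gave 77 probes for 66 genes, 42 of them Mrpl and 24 Mrps, of 26875 features in all, and each gene was represented by its brightest probe on average across the arrays. The features also include probes that matched no gene symbol, so shares over all features cover both kinds. Male rats were gavaged with saline or with 6 mg/kg of cyclophosphamide, an alkylating drug used against tumours, on 6 days a week for 4 weeks. Pachytene spermatocytes, which are cells in meiotic prophase, and round spermatids, the haploid cells that follow meiosis, were separated by sedimentation, and their total RNA was hybridised to 1-colour Agilent arrays. There were 5 arrays of pachytene spermatocytes from saline rats, 5 from cyclophosphamide rats, 6 of round spermatids from saline rats and 6 from cyclophosphamide rats. Every array was labelled with a rat number. The labels give no strain or age, and they do not say whether equal numbers in both cell types are the same animal, so each array was taken as a separate sample. Among the cyclophosphamide pachytene arrays, 2 carry the rat number 16 with different years in their titles, and they too were taken as separate rats. The p-values thus measure the spread between these samples.

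The mitochondrial ribosome translates the few proteins that mitochondrial DNA encodes, all of them core parts of the oxidative phosphorylation complexes. Its own proteins are encoded in the nucleus, made in the cytosol and imported. Many have a counterpart in the bacterial ribosome, and the others were added in the mitochondrial lineage. Mrpl and Mrps name the large subunit, which forms peptide bonds, and the small subunit, which reads the messenger RNA, although a few proteins first assigned to the small subunit sit in the large one. Germ cell mitochondria take a condensed form in pachytene spermatocytes and spermatids and are later wrapped around the sperm tail.

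Levels are given as log2 of the processed signal with the 75th percentile of each array set to 0, so a difference of 1 is 2-fold. That percentile lay between 1069.7 and 2424.9 intensity units on the 22 arrays, and no non-control spot was saturated. The fractions were set against marker genes of their labelled cells. Summed over 15 round spermatid marker genes, the signal in units of the 75th percentile ran from 48.0 to 99.3 on the saline pachytene arrays and from 298 to 408 on the saline round spermatid arrays. The sum over 17 pachytene markers ran from 159.7 to 200.7 and from 117.6 to 152.7. Gene by gene, 13 of these 17 were lower in saline round spermatids and 1 was higher (limma, adjusted p under 0.05). Their median difference was -1.855, and 37.0% of all features were lower. The protamine gene Prm1, whose RNA accumulates in spermatids, was bright in the pachytene fraction too, with a mean level of 68.0 against 199 in round spermatids of saline rats. Slides 1 and 2 held all round spermatid arrays and 1 pachytene array of each treatment per slide, while slides 3 and 4 held pachytene arrays only, so cell type was partly tied to slide.

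Of the 66 genes, 65 were well above background often enough to be tested in every comparison. The gene left out was Mrpl47, a large subunit protein, which rose well above background on 3 of the 5 pachytene arrays from saline rats, 0 of 5 cyclophosphamide pachytene arrays, 0 of 6 saline round spermatid arrays and 1 of 6 cyclophosphamide round spermatid arrays. It lay between -6.28 and -5.29 on the saline pachytene arrays and between -6.53 and -5.98 on the saline round spermatid arrays. These ranges overlapped, and no difference was computed.

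In saline rats, mitochondrial ribosomal protein genes were mostly lower in round spermatids than in pachytene spermatocytes. Of the 65 tested, 48 (73.8%) were lower at an adjusted p under 0.05 (limma, Benjamini-Hochberg over 19401 features), where 37.0% of all features were lower. A higher level was called for 4 members (6.15%), against 38.2% of all features, and 13 passed in neither direction. The median difference over the 65 was -0.53, with quartiles of -1.09 and -0.34, while the median over all features was 0.01. Fewer cells of a type in a fraction and less RNA per cell cannot be told apart in these bulk samples. The arrays of both groups did not overlap for 37 lower members, against 28.3% of all features that were lower without overlap, and 20 of 65 members were lower by more than 2-fold, against 20.6% of all features. Markers of other cell types differed too. In saline round spermatids 9 of 13 Sertoli cell markers were lower, 1 (Wt1) was higher and 3 did not pass. Their summed level was 57.7 to 74.3 on saline pachytene arrays and 29.3 to 39.9 on saline round spermatid arrays. Macrophage markers were higher for 10 of 10 tested, with 1.02 to 1.48 against 4.38 to 13.2. Leydig cell markers were lower for 7 of 7 tested. Peritubular myoid cell markers were higher for 6 of 7, and 1 did not pass. None of the 13 Sertoli markers stayed below background on all arrays of a group. The part of all these markers in the result was not tested.

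**Figure D1:**
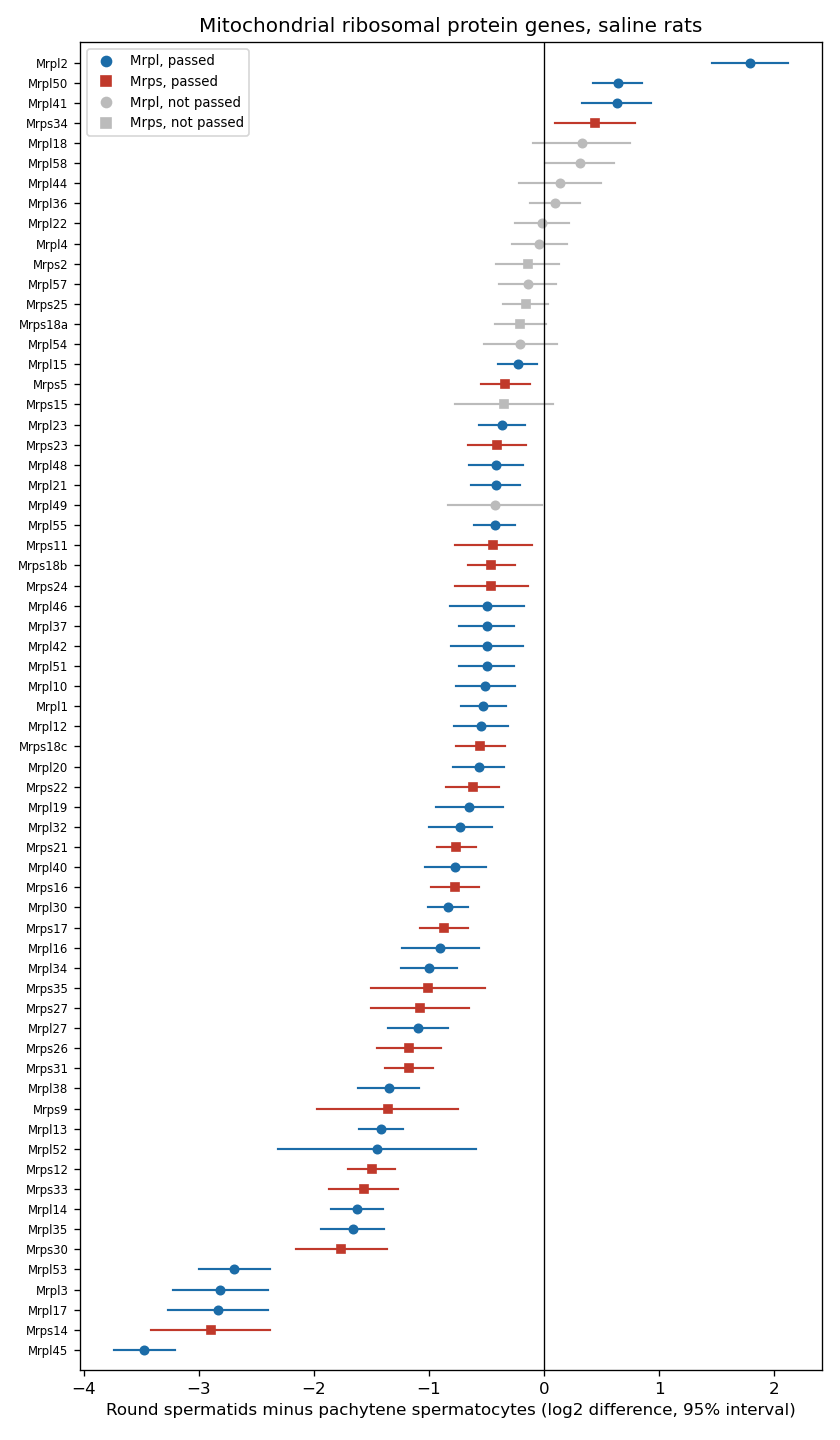
Difference between round spermatids and pachytene spermatocytes of saline rats for the 65 tested mitochondrial ribosomal protein genes, on the log2 scale with 95% intervals, ordered from highest to lowest; circles are Mrpl genes, squares Mrps genes, and grey marks genes that did not pass. Mrpl2 stands alone on the right at 1.79, and 5 genes from Mrpl53 at -2.69 to Mrpl45 at -3.47 stand apart on the left.

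A group of 5 genes stood at the low end, each lower by more than 6-fold. The largest fall was that of Mrpl45, a mitochondria-specific protein near the exit of the peptide tunnel that touches the inner membrane. Its log2 level was 1.79, 1.84, 1.85, 2.13 and 2.24 on the saline pachytene arrays, and ran from -1.79 through a median of -1.60 to -1.08 on the saline round spermatid arrays. All pachytene arrays were thus above all round spermatid arrays, and the difference was -3.47 ± 0.13 (SE, limma, adjusted p = 2.64e-15), an 11.1-fold fall. Mrps14, a small subunit protein with a bacterial counterpart, was dim. It lay at -2.90, -2.81, -2.31, -1.81 and -1.47 in pachytene spermatocytes and from -5.70 through -5.27 to -4.42 in round spermatids, where it was well above background on 4 of 6 arrays. The groups were separate, with a difference of -2.90 ± 0.25 (adjusted p = 5.75e-10), which rests in part on signal near background.

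Mrpl17, the counterpart of a bacterial large subunit protein, lay at 1.18, 1.27, 1.86, 2.23 and 2.35 in saline pachytene spermatocytes and from -1.47 through -1.18 to -0.50 in saline round spermatids. Its arrays did not overlap, and it fell by 2.83 ± 0.21 (SE, limma, adjusted p = 5.01e-11). Mrpl3, which lies close to the site of peptide bond formation, was at -1.31, -1.13, -0.96, -0.61 and -0.34 in pachytene spermatocytes and from -4.07 through -3.85 to -3.17 in round spermatids. It too showed no overlap, with a difference of -2.81 ± 0.20 (adjusted p = 2.65e-11). Mrpl53, a mitochondria-specific large subunit protein, lay at 1.36, 1.89, 2.09, 2.27 and 2.65 and then from -0.69 through -0.65 to -0.58. The 6 round spermatid arrays of Mrpl53 were close together while the pachytene arrays spread over more than 2-fold, and the difference was -2.69 ± 0.15 (adjusted p = 9.73e-13).

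Another 3 members completed the 8 largest falls among members without overlap. Mrps30, which despite its name sits in the central protuberance of the large subunit, lay at 1.48, 1.55, 1.66, 1.75 and 1.77 in saline pachytene spermatocytes and from -0.34 through -0.09 to 0.10 in saline round spermatids, a difference of -1.76 ± 0.19 (SE, limma, adjusted p = 2.13e-08). Mrpl35 lay at 0.43, 0.61, 0.85, 1.02 and 1.16 and from -1.08 through -0.86 to -0.58, a difference of -1.66 ± 0.13 (adjusted p = 1.60e-10). Mrpl14, a large subunit protein on the face that meets the small subunit, lay at 0.76, 0.87, 0.98, 1.04 and 1.097 and from -0.88 through -0.74 to -0.39, a difference of -1.62 ± 0.11 (adjusted p = 1.36e-11). In none of the 3 did a round spermatid array reach the lowest pachytene array.

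**Figure D2:**
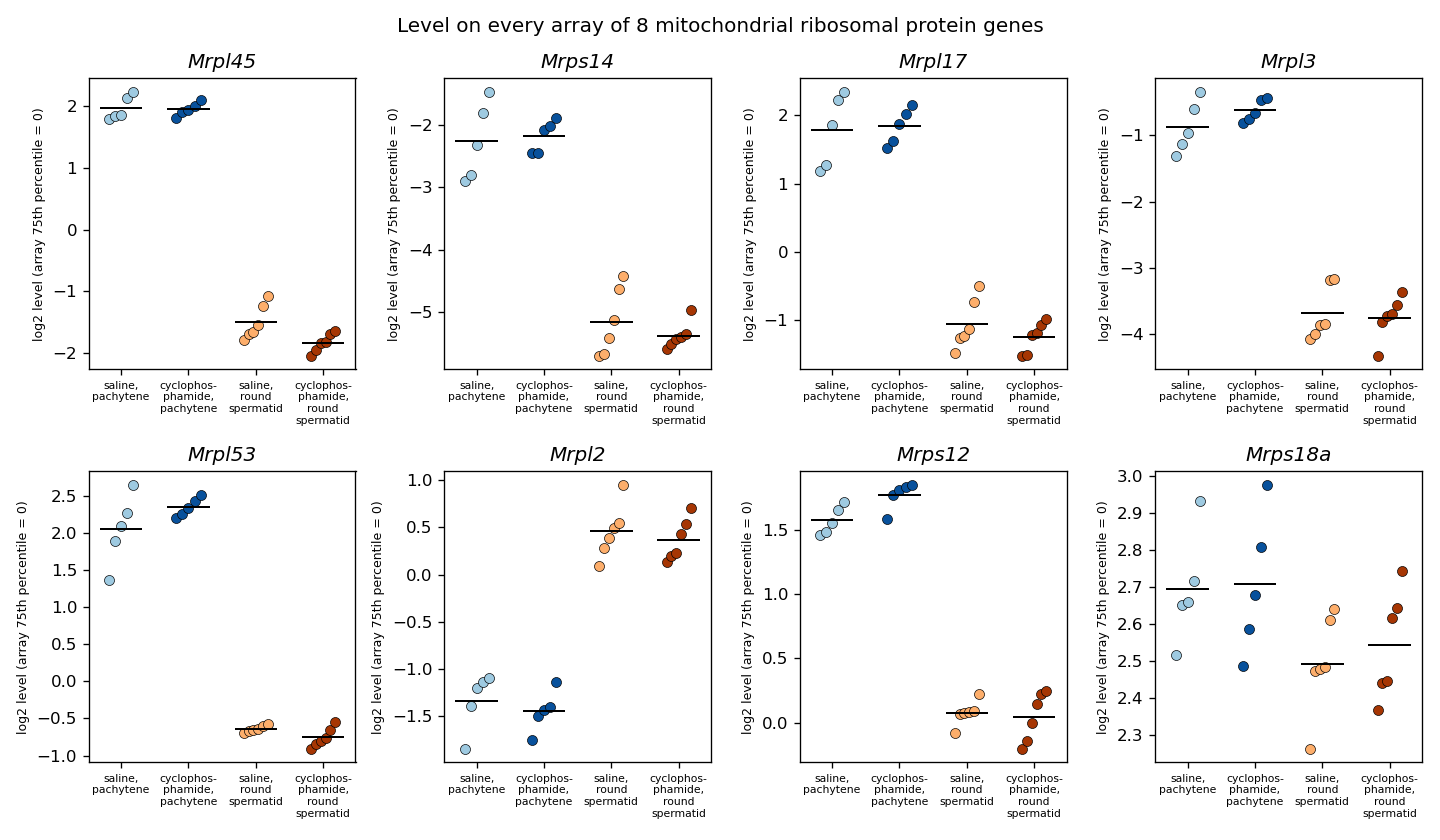
Log2 level on every array, with the 75th percentile of the array at 0, for the 5 largest falls, the largest rise and the small subunit genes Mrps12 and Mrps18a; points are arrays (5, 5, 6 and 6 from left to right), bars are group means, and each panel has its own axis. Pachytene and round spermatid arrays are separate in every panel except that of Mrps18a, while saline and cyclophosphamide arrays of the same cell type overlap in all panels.

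Only 4 members were higher in saline round spermatids. Mrpl2, which lies in the core of the large subunit near the peptidyl transferase site, stood apart from them. It lay at -1.85, -1.40, -1.20, -1.14 and -1.09 in saline pachytene spermatocytes and from 0.09 through 0.44 to 0.95 in saline round spermatids. The groups did not overlap, and the rise was 1.79 ± 0.16 (SE, limma, adjusted p = 8.40e-10), or 3.47-fold. Mrpl50, a mitochondria-specific large subunit protein, lay at -0.27, -0.24, -0.23, -0.12 and 0.08 and from 0.39 through 0.47 to 0.61. Its rise of 0.64 ± 0.10 (adjusted p = 8.66e-06) came without overlap on the probe used. With the mean of both of its probes the difference was -0.18 and did not pass. Mrpl41, also mitochondria-specific, lay at 2.82, 3.04, 3.06, 3.60 and 3.78 and from 3.68 through 3.91 to 4.04, so that 1 pachytene array lay inside the round spermatid range, and it rose by 0.63 ± 0.15 (adjusted p = 0.000485). Mrps34, a mitochondria-specific small subunit protein, rose by 0.44 ± 0.17 (adjusted p = 0.0211) with overlapping arrays.

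Mrps12, Mrps16 and Mrpl12 were among the members chosen for their known roles. Mrpl10, chosen for its small p in the drug comparisons, is given beside Mrpl12 for its place in the stalk. Each of these was lower, while other members chosen by role are described in other paragraphs. Mrps12, which forms part of the decoding site of the small subunit, lay at 1.46, 1.48, 1.55, 1.65 and 1.72 in saline pachytene spermatocytes and from -0.08 through 0.08 to 0.22 in saline round spermatids, and fell by 1.496 ± 0.098 (SE, limma, adjusted p = 9.39e-12). Mrps16, needed to assemble the small subunit, lay at 3.96, 4.06, 4.11, 4.35 and 4.43 and from 3.35 through 3.42 to 3.46, and fell by 0.77 ± 0.10 (adjusted p = 3.24e-07). Neither gene had overlapping arrays. Mrpl12, part of the stalk that recruits translation factors, lay at 3.58, 3.75, 3.77, 4.04 and 4.17 and from 3.05 through 3.34 to 3.49, and fell by 0.55 ± 0.11 (adjusted p = 0.000169). Mrpl10, which anchors the stalk, fell by 0.51 ± 0.12 (adjusted p = 0.000887) with overlapping arrays.

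The 3 genes that descend from the bacterial S18 protein differed in outcome. Mrps18a, whose product sits in the large subunit, lay at 2.52, 2.65, 2.66, 2.72 and 2.93 in saline pachytene spermatocytes and from 2.26 through 2.48 to 2.64 in saline round spermatids, with a difference of -0.20 ± 0.11 that did not pass (SE, limma, adjusted p = 0.0900). Mrps18b lay at -0.58, -0.49, -0.45, -0.37 and -0.06 and from -1.01 through -0.86 to -0.64, and fell by 0.46 ± 0.10 (adjusted p = 0.000290). Mrps18c lay at 3.90, 4.03, 4.06, 4.27 and 4.27 and from 3.35 through 3.52 to 3.83, and fell by 0.55 ± 0.10 (adjusted p = 4.98e-05). The arrays overlapped for Mrps18a and were separate for the other two, and the differences among the 3 genes were not tested. Mrpl44, a large subunit protein related to RNase III, lay at 1.93, 2.78, 2.92, 3.08 and 3.28 and from 2.78 through 2.95 to 3.07, with a difference of 0.14 ± 0.17 (adjusted p = 0.467). The sign for Mrpl44 was not stable. Without its lowest pachytene array the difference was -0.08, and the sign also turned under some other ways of processing with that array kept.

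The remaining members that did not pass in saline rats were Mrpl4, Mrpl18, Mrpl22, Mrpl36, Mrpl49, Mrpl54, Mrpl57, Mrpl58, Mrps2, Mrps15 and Mrps25. Their differences ran from -0.42 for Mrpl49 to 0.33 for Mrpl18. The members that passed and are not described one by one were all lower, from Mrpl15 at -0.23 to Mrps33 at -1.57. Mrpl13, Mrpl38, Mrpl52, Mrps9 and Mrps33 among them were lower by more than 2.5-fold.

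Sorted by subunit and descent, all 4 classes lay mostly on the low side in saline rats, where 37.0% of all features were lower. Among large subunit proteins with a bacterial counterpart, 18 of 23 tested were lower and 1 was higher, with a median difference of -0.57. Among mitochondria-specific large subunit proteins, 12 of 20 were lower and 2 higher, with a median of -0.46. Among small subunit proteins with a bacterial counterpart, 11 of 13 were lower and 0 higher, with a median of -0.55. Among mitochondria-specific small subunit proteins, 7 of 9 were lower and 1 was higher, with a median of -1.01. Differences between these classes were not tested. In the central protuberance, the large subunit crest that faces the small subunit, 6 of 7 were lower, the exception being Mrpl18. In a short list of genes for the rim of the exit tunnel, 2 of 5 tested were lower, Mrpl45 and Mrpl23, and Mrpl50 was higher. The share of lower genes in this list (40%) was close to that of all features. The list did not include Mrpl17 or Mrpl32, which were both lower, and the share rests on few genes.

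A further 11 probes for these genes were left aside by the choice of 1 probe per gene, and 9 of them could be tested in saline rats. Each of these 9 gave the same direction as the probe used. The second probe of Mrpl50 was not among them, and the mean of both Mrpl50 probes had the opposite sign to the probe used, as given above. Agreement in size varied. For Mrpl2 the second probe gave 1.73 against 1.79, and for Mrpl41 both gave 0.63. For Mrpl17 the second probe gave -1.59 against -2.83, for Mrpl10 it gave -1.37 against -0.51, and for Mrpl35 it gave -2.49 against -1.66. Whether such probes see different transcripts of a gene was not tested.

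The members are spread over 17 chromosomes, with 0 on the X, and 54 of the 66 have an upstream window in the RefSeq promoter table (assembly GRCr8). The windows of the 5 largest falls and of the largest rise are shown so that the letters searched for can be seen in the genes whose levels differed most. Each is the 250 bases before the annotated start, 5' to 3' on the gene's strand, with matches to the searched motifs in capitals. They lie at chr10:82804789-82805038 (plus strand) for Mrpl45, chr13:74962347-74962596 (plus strand) for Mrps14, chr1:169575700-169575949 (minus strand) for Mrpl17, chr8:114548720-114548969 (plus strand) for Mrpl3, chr4:117172793-117173042 (plus strand) for Mrpl53 and chr9:21834608-21834857 (minus strand) for Mrpl2.
Mrpl45: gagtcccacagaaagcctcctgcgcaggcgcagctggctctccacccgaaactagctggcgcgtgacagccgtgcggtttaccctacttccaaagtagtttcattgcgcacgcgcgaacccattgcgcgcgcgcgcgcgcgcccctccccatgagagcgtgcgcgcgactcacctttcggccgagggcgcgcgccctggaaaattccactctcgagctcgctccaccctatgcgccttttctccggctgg
Mrps14: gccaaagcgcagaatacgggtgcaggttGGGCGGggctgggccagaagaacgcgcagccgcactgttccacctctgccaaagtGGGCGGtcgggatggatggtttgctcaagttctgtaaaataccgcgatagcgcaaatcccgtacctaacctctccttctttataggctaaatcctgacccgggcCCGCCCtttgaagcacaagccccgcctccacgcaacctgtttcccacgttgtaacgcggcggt
Mrpl17: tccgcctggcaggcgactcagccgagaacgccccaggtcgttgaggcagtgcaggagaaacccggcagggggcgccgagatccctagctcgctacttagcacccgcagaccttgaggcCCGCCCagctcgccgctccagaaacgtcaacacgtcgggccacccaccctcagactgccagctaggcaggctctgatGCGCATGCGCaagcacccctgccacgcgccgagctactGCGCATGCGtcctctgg
Mrpl3: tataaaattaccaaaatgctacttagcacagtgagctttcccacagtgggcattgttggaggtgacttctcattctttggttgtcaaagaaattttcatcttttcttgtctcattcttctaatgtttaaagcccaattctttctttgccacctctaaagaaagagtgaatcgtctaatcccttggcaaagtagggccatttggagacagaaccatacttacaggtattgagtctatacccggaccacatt
Mrpl53: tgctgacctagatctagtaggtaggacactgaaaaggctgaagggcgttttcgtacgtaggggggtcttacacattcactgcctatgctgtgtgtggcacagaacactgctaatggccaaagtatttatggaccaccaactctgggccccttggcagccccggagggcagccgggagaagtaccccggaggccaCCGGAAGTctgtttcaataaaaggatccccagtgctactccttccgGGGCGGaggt
Mrpl2: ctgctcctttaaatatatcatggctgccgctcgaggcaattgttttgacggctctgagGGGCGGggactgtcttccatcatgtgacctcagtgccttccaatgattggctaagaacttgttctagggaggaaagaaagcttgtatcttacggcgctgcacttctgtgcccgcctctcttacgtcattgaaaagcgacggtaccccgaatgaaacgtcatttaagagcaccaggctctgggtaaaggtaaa

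The windows were searched on both strands for 4 short motifs, each tied by textbook knowledge to factors that act at genes for mitochondrial proteins or at many promoters without a TATA box. The NRF1 core GCGCATGCG was present upstream of 5 members (9.26% of 54), against 1.49% of 27457 windows of the same length and 1.87% of the 19005 from protein-coding genes. Those members were Mrpl17, Mrpl22, Mrpl32, Mrpl44 and Mrps18b, and 3 of these 5 were lower in saline round spermatids, as were 34 of the 48 tested members without the motif. The ETS core CCGGAAGT, which GABPA binds, was present upstream of 5 members (9.26%), against 3.29% of all windows and 4.16% of protein-coding ones. Those were Mrpl27, Mrpl48, Mrpl53, Mrps18c and Mrps27, and all 5 were lower, with a median difference of -1.07, as were 32 of 48 without the motif, with a median of -0.50. The SP1 box GGGCGG was upstream of 25 members (46.3%), against 32.4% and 40.3%, and 20 of the 25 were lower, as were 17 of 28 without it. Among all features 37.0% were lower, and differences between members with and without a motif were not tested. The YY1 letters ATGGCGGC were upstream of 0 members, against 1.15% of all windows. The 3 NRF1 matches of Mrpl17 include an overlapping pair read on opposite strands, while the windows of Mrpl45 and Mrpl3 hold none of the 4 motifs. A match in these letters is no evidence of binding.

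Many members start close to another gene read in the opposite direction. A protein-coding or other annotated gene began within 1000 bases upstream on the opposite strand for 17 of 54 members (31.5%), against 10.4% of the 19005 protein-coding genes. Mrpl46 and Mrps11, one protein from each subunit, face each other in this way with starts 234 bases apart, and in saline rats they differed by -0.49 and -0.44 (limma, adjusted p = 0.00704 and 0.0177). Of 9 lower members with a tested partner, 8 partners were also lower, counting Mrpl46 and Mrps11 each as the partner of the other, while 37.0% of all features were lower. Among these partners were Eme1 beside Mrpl27 at -1.96, Mitd1 beside Mrpl30 at -2.81 and Helq beside Mrps18c at -2.36. The exception was Ppp1r10 beside Mrps18b, which was higher by 1.03. Upstream of Mrpl2, Klc4 did not pass, at -0.24.

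The cyclophosphamide rats, whose arrays are not shared with the saline comparison, also showed mostly lower levels. Round spermatids were lower than pachytene spermatocytes for 52 of 65 members (80% against 40.3% of 19332 features) and higher for 3 (4.62% against 38.8%), and 10 did not pass (limma, Benjamini-Hochberg). The median difference was -0.77, against -0.02 over all features. Arrays of both groups were separate for 49 lower members, where 34.5% of all features were lower without overlap. All 48 members that were lower in saline rats were lower here as well, as were Mrpl22, Mrpl49, Mrpl57 and Mrps25. Mrpl2, Mrpl50 and Mrpl41 were higher in both, and no member passed in opposite directions.

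The same 5 genes had the largest falls. Mrpl45 lay at 1.82, 1.90, 1.94, 2.01 and 2.10 in cyclophosphamide pachytene spermatocytes and from -2.05 through -1.84 to -1.64 in cyclophosphamide round spermatids, a difference of -3.79 ± 0.13 (SE, limma, adjusted p = 4.37e-16). Mrps14 differed by -3.19 ± 0.25 (adjusted p = 7.87e-11) and was well above background on 5 of 6 round spermatid arrays. Mrpl3 differed by -3.13 ± 0.20 (adjusted p = 2.43e-12), Mrpl53 by -3.10 ± 0.15 (adjusted p = 5.25e-14) and Mrpl17 by -3.08 ± 0.21 (adjusted p = 6.95e-12). Mrpl2 lay at -1.76, -1.50, -1.44, -1.40 and -1.13 and from 0.13 through 0.33 to 0.70, and rose by 1.82 ± 0.16 (adjusted p = 4.96e-10). For all 6 genes the pachytene and round spermatid arrays were separate.

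Slides 1 and 2 each held 1 pachytene array and 3 round spermatid arrays per treatment, so within a slide the pachytene side is a single array, assumed to vary like the other groups on that slide (4 residual degrees of freedom). The median difference of the members in saline rats was -0.58 on slide 1 and -0.60 on slide 2, and in cyclophosphamide rats -0.68 and -0.88. The same limma fit within a slide put 32 members lower and 2 higher on slide 1 in saline rats, against 27.1% and 28.5% of all features, and 32 lower and 4 higher on slide 2, against 28.6% and 31.5%. In cyclophosphamide rats 39 members were lower on each slide, against 31% and 32.2% of all features. With the slide as a block over all arrays, 49 members were lower and 4 higher in saline rats. The main fit had 48 and 4, where 37.0% of all features were lower and 38.2% higher. The mean over the 65 genes of each gene's deviation from its own mean over all arrays ran from 0.331 to 0.509 on the saline pachytene arrays, 0.428 to 0.544 on the cyclophosphamide pachytene arrays, -0.414 to -0.274 on the saline round spermatid arrays and -0.494 to -0.307 on the cyclophosphamide round spermatid arrays. The cell types were separate on this measure on every slide that held both, and the treatments overlapped within each cell type.

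**Figure D3:**
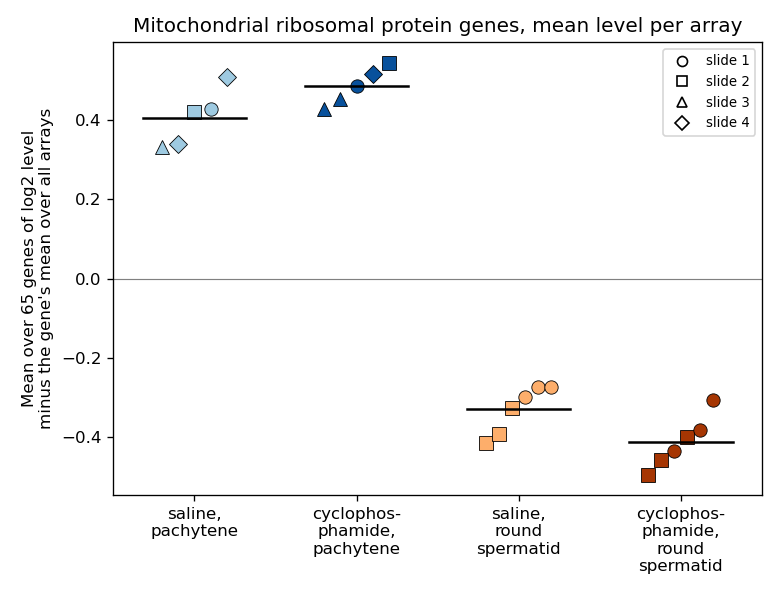
Mean over the 65 tested genes of the log2 level minus the gene's mean over all 22 arrays, 1 point per array, with the slide as the shape of the point and group means as bars. Pachytene arrays lie between 0.331 and 0.544 and round spermatid arrays between -0.494 and -0.274, and within a cell type the treatments overlap.

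No mitochondrial ribosomal protein gene passed for cyclophosphamide in pachytene spermatocytes. The drug comparisons use the same arrays as the cell type comparisons and are not independent of them. None of the 65 had an adjusted p under 0.05 (limma; 0% of 18450 features had), and the smallest adjusted p among them was 0.686. At an unadjusted p under 0.05 there were 3 members, or 4.62%, against 7.24% of all features. A positive difference was measured for 53 of 65 members, against 57.1% of all features, and the median was 0.09 over the members and 0.03 over all features. It was also measured for 74 of 80 cytosolic ribosomal protein genes and 61 of 66 nuclear oxidative phosphorylation genes. All 65 of the 95% intervals lay within 2-fold in either direction, and 57 of them within 1.5-fold. Over the same arrays 14 of 15 round spermatid markers had a negative difference, with a median of -0.35 and 0 passed, and 10 of 10 macrophage markers did too. The part of these in the members' differences was not tested.

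The groups were separate for 1 of 65 members in pachytene spermatocytes, against 0.629% of all features. This was Mrpl30, a large subunit protein named here after its values were seen, at 0.51, 0.59, 0.59, 0.62 and 0.64 in saline and 0.68, 0.72, 0.72, 0.74 and 0.81 in cyclophosphamide pachytene spermatocytes, a difference of 0.15 ± 0.09 that did not pass (SE, limma, adjusted p = 0.730). The members with the smallest unadjusted p each way had overlapping groups. Mrpl10 lay at 4.92, 4.99, 5.15, 5.23 and 5.39 in saline and 5.28, 5.30, 5.33, 5.62 and 5.72 in cyclophosphamide pachytene spermatocytes, a difference of 0.31 ± 0.13 (SE, limma, adjusted p = 0.686). Mrpl13 lay at 3.03, 3.19, 3.24, 3.26 and 3.26 and at 3.25, 3.36, 3.39, 3.40 and 3.58, a difference of 0.20 ± 0.10. Mrpl19 lay at -0.99, -0.90, -0.78, -0.68 and -0.63 and at -0.77, -0.67, -0.56, -0.44 and -0.12, a difference of 0.28 ± 0.14. In each of these 3 large subunit genes the upper part of the saline range met the lower part of the cyclophosphamide range. Mrps30 lay at 1.48, 1.55, 1.66, 1.75 and 1.77 and at 0.61, 0.89, 1.19, 1.54 and 1.87, a difference of -0.42 ± 0.20, and on slide 1 alone it was 0.32. Mrpl38, a central protuberance protein like Mrps30, lay at -0.21, -0.19, -0.03, 0.08 and 0.10 and at -0.58, -0.32, -0.28, -0.25 and -0.09, a difference of -0.26 ± 0.13. Mrpl54 differed by -0.22 ± 0.16 with overlapping arrays.

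In round spermatids, too, no member passed for cyclophosphamide (limma; 0% of 18843 features passed), and 2 had an unadjusted p under 0.05 (3.08% against 3.33% of all features). A negative difference was measured for 54 of 65 members, against 52.7% of all features, with a median of -0.08 against -0.01. It was also measured for 72 of 78 cytosolic ribosomal protein genes and 51 of 65 nuclear oxidative phosphorylation genes. All 65 intervals again lay within 2-fold, and 57 within 1.5-fold. Mrpl14 ran from -0.88 through -0.74 to -0.39 in saline round spermatids and from -1.16 through -1.01 to -0.84 in cyclophosphamide round spermatids, a difference of -0.34 ± 0.10 (SE, limma, adjusted p = 0.9999). Mrpl45 ran from -1.79 through -1.60 to -1.08 and from -2.05 through -1.84 to -1.64, a difference of -0.33 ± 0.12. Mrps30 ran from -0.34 through -0.09 to 0.10 and from -0.93 through -0.31 to -0.12, a difference of -0.33 ± 0.18. The ranges overlapped for all 3, and no member had separate groups, against 0.191% of all features. The members with a positive difference and the smallest p were Mrpl15 at 0.08 ± 0.08, Mrpl50 at 0.07 ± 0.10 and Mrps18b at 0.06 ± 0.09.

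**Figure D4:**
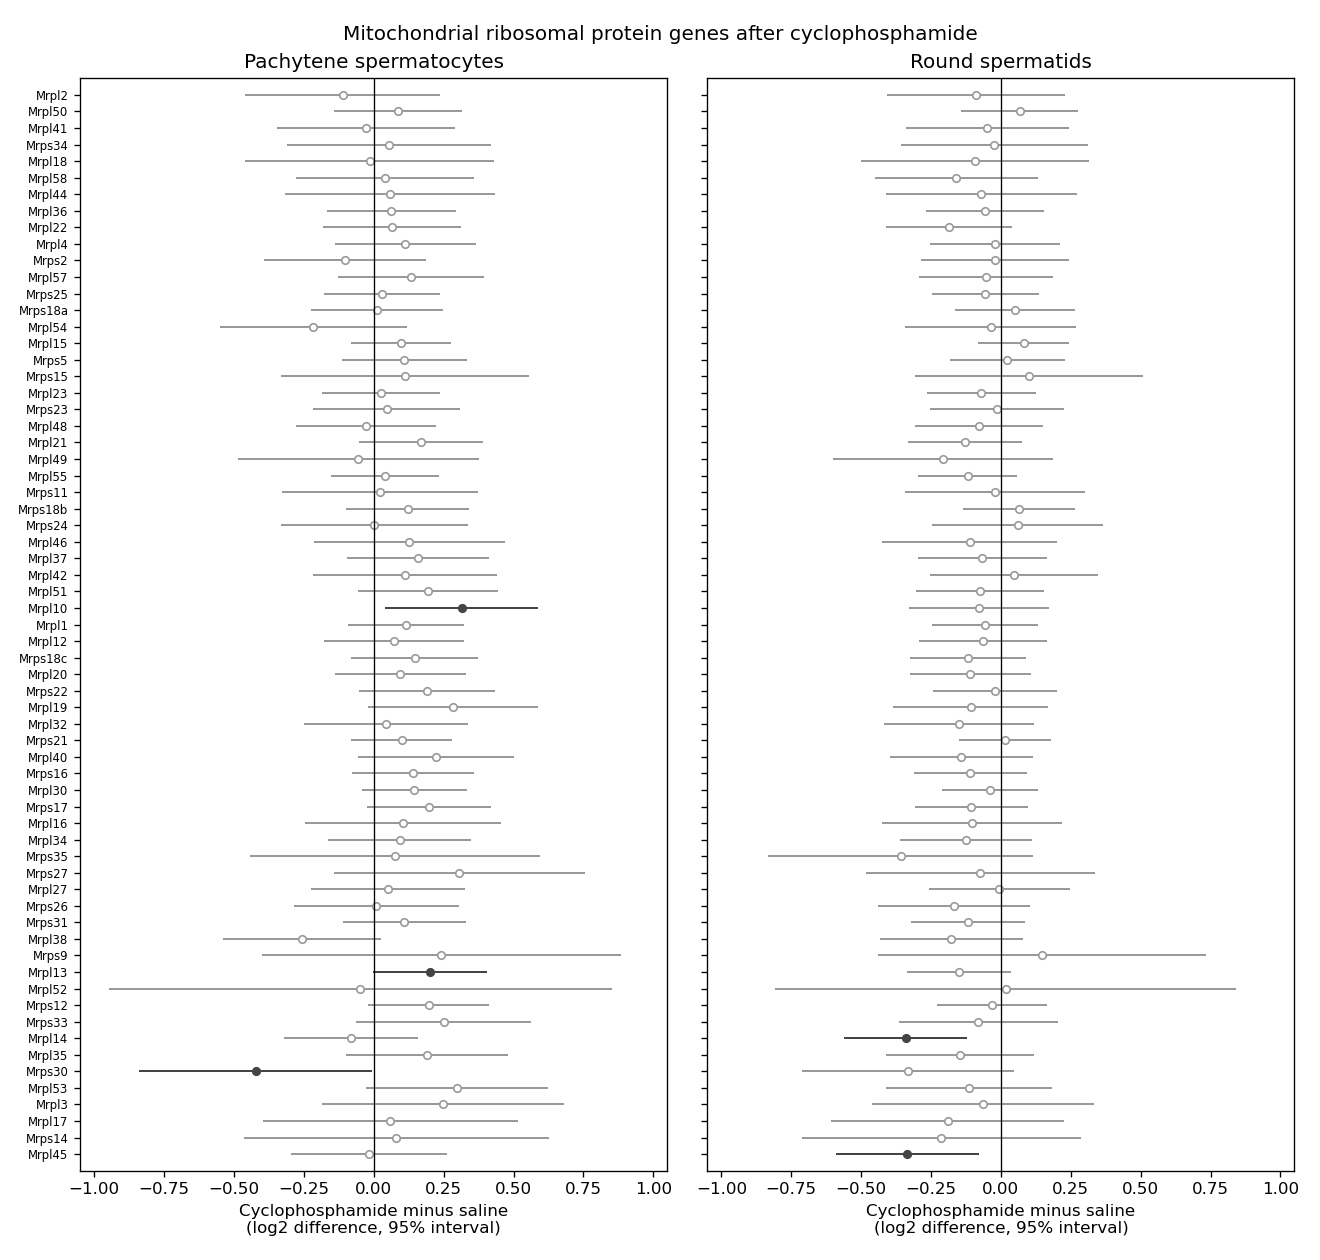
Difference between cyclophosphamide and saline rats on the log2 scale with 95% intervals for the 65 tested genes, in pachytene spermatocytes (left) and round spermatids (right), with genes in the order of their cell type difference; filled points have an unadjusted p under 0.05. No gene passed after adjustment, 53 points lie above 0 on the left and 54 below 0 on the right.

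The difference between both drug effects, round spermatids minus pachytene spermatocytes, was tested in the same fit. No member passed (limma; 0.00509% of 19643 features, or 1, passed), the smallest adjusted p being 0.637, and 3 members had an unadjusted p under 0.05 (4.62% against 7.62%). The term was below 0 for 57 of 65 members, against 55.2% of all features, with a median of -0.18 against -0.04. It was also below 0 for 78 of 80 cytosolic ribosomal protein genes (median -0.18). The same held for 60 of 66 nuclear oxidative phosphorylation genes (median -0.19), so this skew was not particular to the members. In the same term 14 of 15 round spermatid markers were above 0, with a median of 0.49 and 6 at an unadjusted p under 0.05, as were 9 of 10 macrophage markers, and their part in the members' values was not tested. Mrpl13, a large subunit protein with a bacterial counterpart, had -0.35 ± 0.13 (SE), and Mrpl10 had -0.39 ± 0.18. The third was Mrps17, named here after its value was seen, with -0.30 ± 0.14. On slide 1 alone the median over the members was -0.04.

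Other parts of the mitochondrial translation machinery were mostly lower in saline round spermatids as well. Of 5 tested mitoribosomal proteins whose symbols do not begin with Mrpl or Mrps, 3 were lower (37.0% of all features were), among them the small subunit GTP-binding protein Dap3 at -1.66 and Chchd1 at -1.04. Of 22 assembly and ribosomal RNA modification factors, 15 were lower and 1 higher, with a median of -0.71. Rcc1l at -2.51 and the pseudouridine synthase Trub2 at -2.03 had the largest falls, and the RNA methyltransferase Nsun4, at 2.44, was the exception. Of 16 translation factors, 10 were lower and 3 higher. Metap1d, a mitochondrial methionine aminopeptidase, was at -2.04 and the initiation factor Mtif3 at -1.75, while Guf1 at 1.32 and Mtrfr at 0.86 were higher.

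Of 16 mitochondrial aminoacyl-tRNA synthetases and amidotransferase subunits, 11 were lower in saline round spermatids and 2 higher. Hars2, which charges the mitochondrial histidine tRNA, had a difference of -3.81, and Gatc one of -2.35, while Nars2 at 1.01 and Ears2 at 0.72 were higher. Of 14 genes for upkeep and transcription of mitochondrial DNA, 7 were lower and 4 higher, with Mgme1 at -2.15 and Tefm at -2.11 against Top1mt at 2.22 and Mterf2 at 1.70. Nuclear genes for oxidative phosphorylation had 48 of 66 lower and 3 higher, with a median of -0.51. Cytosolic ribosomal protein genes had 50 of 80 lower and 2 higher, with a median of -0.41. The share of lower genes was thus above the 37.0% of all features in the mitochondrial ribosome and in each of these lists, and differences between lists were not tested.

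**Figure D5:**
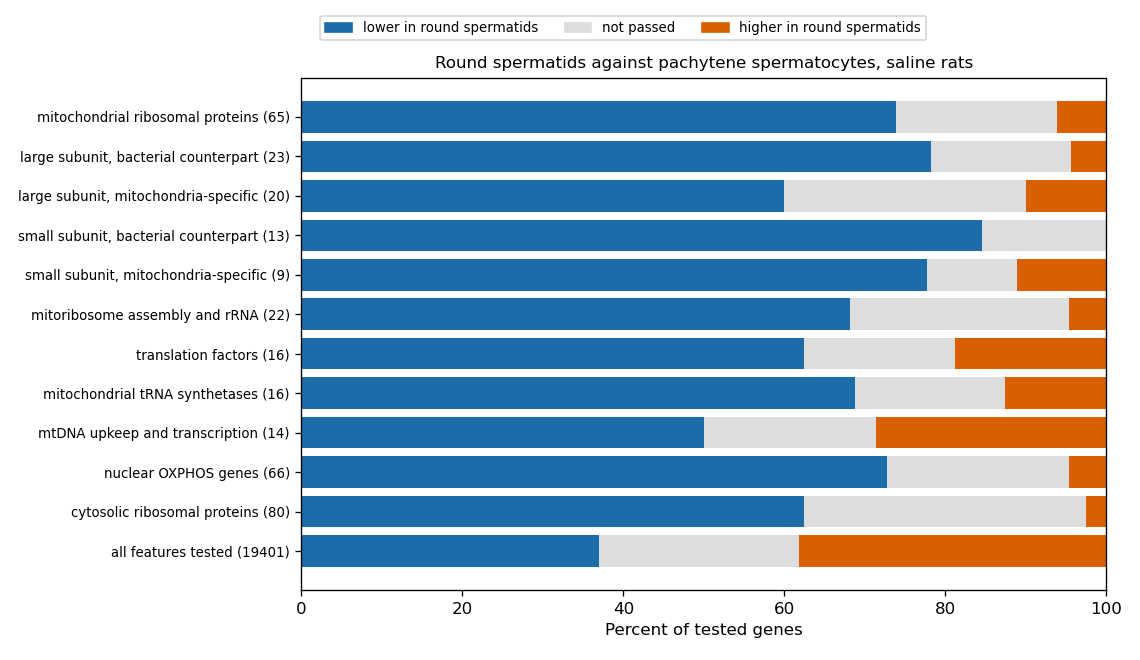
Percent of tested genes that were lower (left), not passed (middle) or higher (right) in saline round spermatids than in saline pachytene spermatocytes, for mitochondrial ribosomal proteins, their 4 classes, related gene lists and all 19401 tested features, with the number tested in brackets. Lower genes make up 73.8% of the mitochondrial ribosomal proteins and 37.0% of all features.

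Among regulators tied to genes of this kind, the members of a factor did not move as one. Gabpa, the DNA-binding subunit of an ETS factor, was higher in saline round spermatids at 1.27 ± 0.12 (SE, limma, adjusted p = 2.63e-09), while its partner subunit Gabpb1 was lower at -2.67 ± 0.11 (adjusted p = 1.62e-14). The nuclear receptor Esrra was at -1.52 and the coactivator Ppargc1b at 2.40, both passed, and Nrf1, whose motif was searched for in the upstream windows, was lower at -0.92. In all, 4 of 8 tested regulators were lower and 2 higher, where 37.0% of all features were lower and 38.2% higher. Yy1 and Myc did not pass. No gene in any of these lists passed for cyclophosphamide in either cell type.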

How the data were processed

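Each array was 1 scanner file of 1-colour Agilent intensity values, deposited by the authors, with processed signals that Agilent Feature Extraction had already background-corrected. The version is 10.7.3.1 per the file headers and 11.5.1.1 per the submitters' processing notes. Spots of a probe were averaged and log2 values taken, with the 75th percentile of each array set to 0. Probes were named through RefSeq accessions (59.3% of 30367 matched), and the probe with the highest mean stood for a gene. A gene was tested if well above background on all arrays, or all but 1, of a group compared. Groups were fitted together with limma 3.58.1 in R 4.3.3, checked on simulated data. Genes described in full were the 8 largest falls and rises without overlap in saline rats, for each drug comparison the passed members or 3 each way by smallest p, the 2 smallest p of the difference between drug effects, and genes with known roles. The authors' deposited value table, log2 values whose scaling is not given in the sources used here, tracked quantile-normalized values centred per gene within a cell type, with column medians of -0.0098 to 0.0070, and served as an alternative for drug effects. Members and lists were chosen with earlier results of these data known.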

Additional observations from a re-analysis of the deposited data

Results flagged for a closer look

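Sets of arrays were checked in each group for every named gene and for the mean deviation of the members. In 1 of these 100 sets, 1 array stood far from the others. Mrpl35 in round spermatids of cyclophosphamide rat 27 lay at -1.31, while the other 5 arrays lay between -0.97 and -0.87. Chance flags about 1 in 20 such sets.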

How the results depend on the processing

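Cell type counts kept within 1.5 times under all alternatives except that 2 members, not 4, were higher within slide 1 in saline rats. With arrays left out in turn, 48 to 49 members were lower in saline rats and 50 to 52 in cyclophosphamide rats, and 0 passed for the drug. The main fit had 48 and 52, where 37.0% and 40.3% of all features were lower. The median of the members in saline rats (-0.53) was -0.69 after quantile normalization and -0.60 within slide 2. In cyclophosphamide rats (-0.77) it was -0.69 with normexp on median signals (an alternative chosen after seeing the data, since the planned mean signals were not in the columns used), -0.87 after quantile normalization, -0.68 within slide 1 and -0.88 within slide 2. For the drug in pachytene spermatocytes (0.09) it was -0.01, 0.18 and 0.15 within slides 1, 2 and 4, and for the difference between drug effects (-0.18) it was -0.04 within slide 1. Slide 3 held 2 cyclophosphamide arrays and 1 saline array and left 1 residual degree of freedom. Within it the difference for Mrpl52 was 1.66, and a difference against a lone array carries little weight. Mrpl52 varied widely among saline pachytene arrays, from -1.28 to 0.81. Signs turned for Mrpl44 in saline rats (-0.10 after quantile normalization, -0.03 with the slide as a block, -0.32 within slide 1, -0.08 without saline pachytene replicate 16, and up to 0.26 without other single arrays), Mrpl50 (-0.18 as the mean of its probes), Mrps30 for the drug in pachytene spermatocytes (0.32 within slide 1) and Mrps18b for the drug in round spermatids (-0.02 within slide 1). The causes were not tested. With the rat number as a replicate block, 48 members were lower in saline rats and 52 in cyclophosphamide rats, and 0 passed for the drug, as in the main fit. Same-numbered arrays of both cell types correlated between -0.0956 and 0.376 in their deviations from group means. With few such arrays and no differently numbered ones beside them, these values cannot tell whether equal numbers are the same animal. The numbers were not taken as pairs because the labels do not say that they are. The number of arrays limits precision.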
